A study of Mus musculus with 20 samples.

Results

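Interferon-stimulated genes and the genes of class I antigen processing were followed in the left ventricles of mice given doxorubicin (DOXO), folic acid (FA), both or neither. The set held 44 named genes, taken by symbol. A gene was counted as measured where a transcript cluster of the array (the probe set that stands for 1 transcript region) was annotated to that symbol alone, and the cluster with the highest mean signal stood for it. This gave 39 of the 44 genes, out of 19937 gene symbols with a cluster of their own. Isg15, Gbp2 and Igtp lay only on clusters annotated to several symbols and were not named from them. Ifi44 had no cluster under its symbol, and Tmem173 was listed under its newer name Sting1, whose values are given beside the 39 and not among them. Irf1 had 2 clusters and Nlrc5 had 19.

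Left ventricles came from 20 male C57BL/6 mice of 2 months of age, 1 array a mouse. The FA-DOXO group (n = 6) had folic acid at 10 mg per day in the diet and 1 intraperitoneal dose of doxorubicin at 20 mg/kg, and the DOXO group (n = 6) had the placebo diet and the same dose. The FA-sham group (n = 4) had folic acid and a sham injection, and the sham group (n = 4) had the placebo diet and a sham injection. Diets began 7 days before the injection and the tissue was taken at day 10, so the FA-DOXO and DOXO groups hold only mice that lived until then.

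Cells detect viral or misplaced nucleic acid with sensor proteins, which switch on interferon genes through the IRF transcription factors. Secreted type I interferons act through a receptor on the same and neighbouring cells and assemble a complex with Stat2 and Irf9, which binds a short promoter element and switches on a large group of antiviral genes. Interferon gamma acts through a separate receptor and is the main inducer of the immunoproteasome and of the guanylate-binding proteins. Class I antigen processing takes peptides cut by the proteasome, moves them into the endoplasmic reticulum through the Tap1-Tap2 transporter and loads them on class I molecules, whose light chain is B2m. In the heart the resident macrophages, the endothelium and the myocytes can all express parts of this programme.

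The promoters of the set were searched for the element that this complex reads. Of the 39 measured genes, 28 had a promoter window in the RefSeq table for GRCm38.p6, running from 250 bases before to 50 bases after the gene's start. The core of the interferon-stimulated response element, GAAANNGAAA on either strand (TTTCNNTTTC when read on the other), was present in 12 of the 28 windows (42.9%), against 3.99% of all genes of the table. The longer form, in which the core is followed by CT, was present in 7 of 28 (25%), against 0.303% of all genes. The gamma-activated site TTCNNNGAA, a palindrome that is the same on both strands, was present in 7 of 28 (25%), against 9.55% of all genes. A match describes the letters and does not show a bound site. Stretches of 100 bases around the core are given here for 5 genes that recur in the results, on the strand of the gene with the core in capitals. They are chr19:34640740-34640839, plus strand for Ifit1, chr19:34583328-34583427, plus strand for Ifit3, chr12:26456518-26456617, minus strand for Rsad2, chr3:142559954-142560053, plus strand for Gbp3 and chr2:122147503-122147602, plus strand for B2m. In these stretches the first core begins 104 bases before the start of Ifit1, 156 before that of Ifit3, 120 before that of Rsad2, 45 before that of Gbp3 and 139 before that of B2m, and Ifit1, Ifit3 and Gbp3 hold 2 cores each, which overlap in Gbp3.
Ifit1: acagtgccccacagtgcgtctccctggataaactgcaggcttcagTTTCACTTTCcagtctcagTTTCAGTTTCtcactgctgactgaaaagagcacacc
Ifit3: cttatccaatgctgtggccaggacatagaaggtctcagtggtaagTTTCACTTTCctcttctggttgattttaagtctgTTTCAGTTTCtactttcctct
Rsad2: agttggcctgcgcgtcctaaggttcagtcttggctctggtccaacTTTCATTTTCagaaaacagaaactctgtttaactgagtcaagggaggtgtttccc
Gbp3: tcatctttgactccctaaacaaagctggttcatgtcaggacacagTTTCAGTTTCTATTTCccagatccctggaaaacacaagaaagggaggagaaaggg
B2m: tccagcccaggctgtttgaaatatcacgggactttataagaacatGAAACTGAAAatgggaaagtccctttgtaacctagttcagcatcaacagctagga

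The 20 arrays differed in the spread of their deposited log2 signals, and most of the variation of the set between mice followed that spread. The SD of the 34760 clusters of an array ran between 0.863 and 1.5. Arrays with an SD above 1.1 are called wide here. They were 2 of 6 in FA-DOXO, 2 of 6 in DOXO, 1 of 4 in FA-sham and 3 of 4 in sham. Groups and spread are therefore partly confounded, and each comparison was fitted with the array SD as a covariate. The fit used 1 variance per gene for all 20 arrays, although the median SD of a member was 0.10 on narrow and 0.25 on wide arrays. Intervals of the comparisons with sham may therefore be too narrow. Cardiomyocyte markers moved with the spread as well: Myh6, the alpha myosin heavy chain, averaged 10.9 on wide arrays and 7.46 on narrow ones.

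Most members gave signals near the middle of the array. The mean log2 signal of 28 of the 39 lay within 0.5 of the array median, 9 lay more than 0.5 above it and 2 (Mx1 and Mx2) more than 0.5 below. The interferon genes Ifnb1 and Ifna2 had means of 6.11 and 7.13, beside array medians of 6.23 to 6.66. Whether members at this level were expressed above background was not tested. B2m and Nlrc5 were the brightest, with means of 9.31 and 8.92 over the 20 mice, and the next, Psmb9, had 7.79. Nlrc5 stands here by the brightest of its 19 clusters, whereas 37 of the 39 members had 1 cluster. The mean over the 39 genes was 6.85 ± 0.13 in FA-DOXO, 6.88 ± 0.16 in DOXO, 6.84 ± 0.14 in FA-sham and 7.05 ± 0.29 in sham (SD, n = 6, 6, 4 and 4). The sham group had the highest mean and the largest spread, and the groups overlapped.

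**Figure D1:**
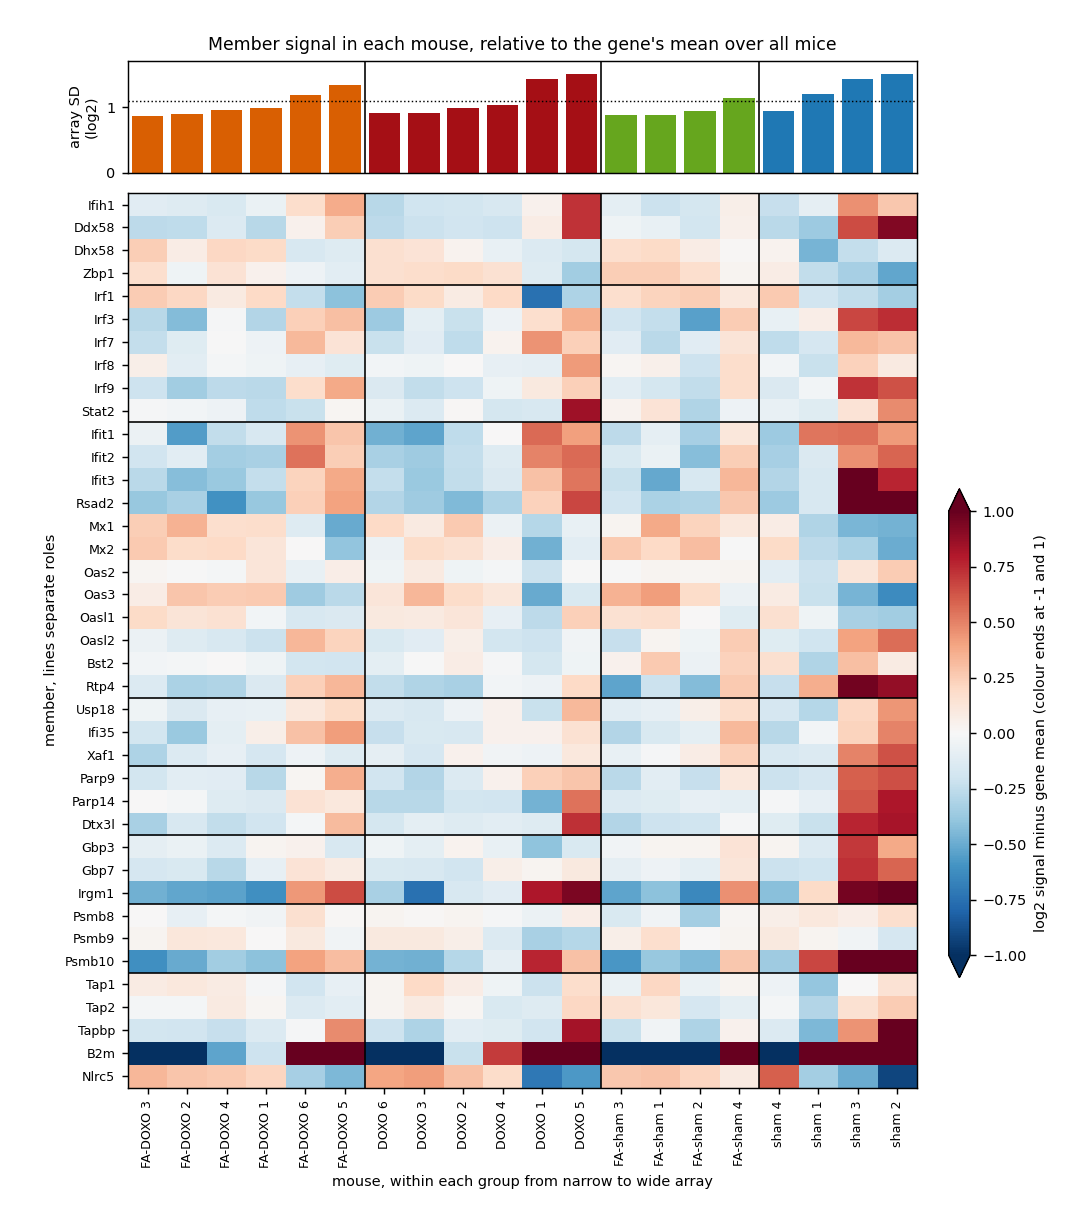
Log2 signal of the 39 measured genes (rows, by role) in each of the 20 mice (columns, by group and then by array SD), minus the mean of that gene over all mice. Bars give the array SD, with a dotted line at 1.1. The deepest colours stand in sham 2 and sham 3, whose arrays have SDs of 1.5 and 1.43, and in the row of B2m.

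Over the 20 arrays, 28 members correlated positively with the array SD and 11 negatively. Pearson's r was above 0.7 for 18 of them and under -0.7 for 8, while over all clusters 24.0% were above 0.7 and 45% under -0.7. These correlations describe arrays and share the same normalization. Signals of Irgm1, an interferon-induced GTPase of the autophagy system, had an r of 0.96, and those of Psmb10 0.92. The chosen cluster of Nlrc5, the transactivator of class I genes, had -0.95. Mx1, Mx2, Oas3, Zbp1 and Irf1 ran the other way from the Ifit genes, with r of -0.85 to -0.90.

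B2m, the light chain of class I molecules, had by far the widest range. It stood at 6.42 to 10.0 on the 12 narrow arrays and averaged 11.5 on the 8 wide ones. Within the narrow arrays its SD was 1.15, against 0.19 for the next member and a median of 0.10 over the set. The 6 FA-DOXO mice ran from 6.82 through a median of 8.95 to 11.3, and the 6 DOXO mice from 7.14 through 9.55 to 11.6. The FA-sham mice had 6.42, 7.92, 6.67 and 10.9, and the sham mice 11.4, 12.1, 12.0 and 7.58. At equal array SD the DOXO minus sham difference of B2m was -0.13 with a standard error of 0.54, so a difference of up to about 1 log2 unit in either direction was within its 95% interval (-1.26 to 1.00).

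Doxorubicin on the placebo diet, DOXO against sham, was the first comparison. No member was higher and 2 were lower at the unadjusted p under 0.01 that the study's methods used, Rtp4 and Psmb10. Over all clusters 3.14% were higher and 1.00% lower at that threshold, and the 2 genes are few to read against that background. At a Benjamini-Hochberg adjusted p under 0.05 no member passed, against 0.170% of all clusters, by limma. The unadjusted p was under 0.05 for 5 members, 1 higher and 4 lower, and 12.7% of all clusters had such a p. Of the 39 differences 14 were above 0 and 25 below, with a median of -0.05 beside 0.04 for all clusters. The upper 95% bound lay under a 1.5-fold increase for 38 of the 39, B2m being the exception. The lower bound lay above a 1.5-fold decrease for 33. These 2 counts depended on the fit. They were 35 and 21 without the covariate, and 22 and 15 on wide arrays alone (2 DOXO and 3 sham mice). The count of called members changed with single mice left out: 5 were lower without sham 1 (Rtp4, Gbp3, Parp14, Rsad2 and Bst2), 1 without sham 2 (Rtp4), none without sham 3 and 1 without DOXO 1 (Psmb10), and without sham 4 there were 3 lower (Rtp4, Psmb10 and Gbp3) and 1 higher (Zbp1). Without DOXO 5 both calls were lost, with Parp14 lower and Zbp1 higher, without DOXO 2 Gbp3 was lower as well, and without FA-DOXO 2 Zbp1 was higher as well. The clusters called moved in the same fits, to 838 higher and 859 lower without sham 1 and to 2189 and 599 without sham 4. With each array centred on its median, 619 clusters were higher and 615 lower, against 1091 and 349 as deposited.

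**Figure D2:**
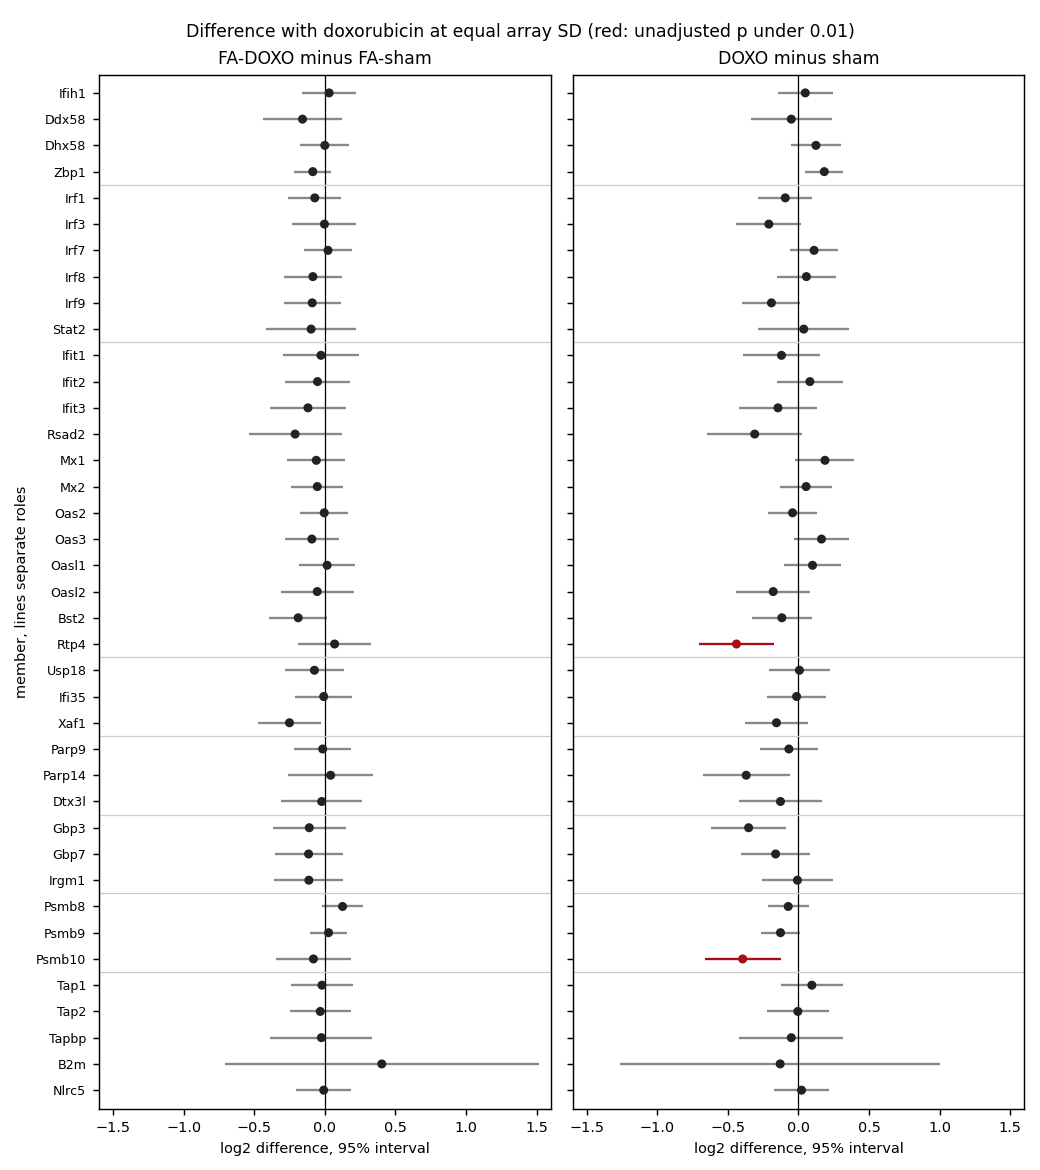
Log2 difference of each of the 39 members with its 95% interval, for FA-DOXO minus FA-sham (left) and DOXO minus sham (right), at equal array SD. Red marks an unadjusted limma p under 0.01, reached by Rtp4 and Psmb10 on the right and by none on the left; B2m has the longest bar in both panels.

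Rtp4, a chaperone that carries certain receptors to the cell surface and restrains the interferon response, ran from 6.54 through a median of 6.72 to 7.07 in the 6 DOXO mice. The sham mice had 7.23, 7.75, 7.83 and 6.64. The 3 sham mice on wide arrays were the highest and the sham mouse on a narrow array lay inside the DOXO range, so the groups overlapped. DOXO averaged 6.74 ± 0.20 and sham 7.36 ± 0.55 (SD, n = 6 and 4). The difference at equal array SD was -0.44 (SE 0.13), a fold of 0.737, with an unadjusted limma p of 0.00272 and an adjusted p of 0.160. On the wide arrays alone it was -0.66, and on the narrow arrays alone, where sham is 1 mouse, 0.0042. The call was lost without sham 3, DOXO 1 or DOXO 5, with unadjusted p of 0.0122 to 0.0131. With folic acid, Rtp4 averaged 6.81 ± 0.27 in FA-DOXO and 6.64 ± 0.35 in FA-sham, with a fitted difference of 0.07 (SE 0.12).

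Psmb10, the inducible proteasome subunit that replaces the constitutive trypsin-like subunit, ran from 6.99 through 7.28 to 8.23 in the DOXO mice, against 8.13, 8.60, 8.61 and 7.11 in the sham mice. The groups overlapped through DOXO 1 and sham 4. DOXO averaged 7.42 ± 0.49 and sham 8.11 ± 0.71 (SD, n = 6 and 4), and the difference at equal array SD was -0.40 (SE 0.13), with an unadjusted p of 0.00630 and an adjusted limma p of 0.209. It was -0.45 on the wide arrays alone and 0.03 on the narrow ones, where sham is 1 mouse. Without sham 1, sham 2, sham 3 or DOXO 5 the call was lost (unadjusted p of 0.0110 to 0.0376). Its partners in the immunoproteasome were measured closer together: the fitted difference of Psmb8 was -0.07 (SE 0.07) and that of Psmb9 -0.13. The promoter window of Psmb10 held neither motif.

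Gbp3 and Parp14 came next in order of p and did not pass. Gbp3, a guanylate-binding protein whose promoter has the overlapping pair of cores printed here, ran from 6.28 through 6.60 to 6.72 in DOXO, against 6.55, 7.06, 7.39 and 6.72 in sham, with a fitted difference of -0.35 (SE 0.13, unadjusted p 0.0119, adjusted limma p 0.253). Parp14, an ADP-ribosyltransferase of the interferon response, ran from 6.33 through 6.57 to 7.34 in DOXO, against 6.72, 7.62, 7.43 and 6.80 in sham. Of its DOXO values 5 lay under every sham value and that of DOXO 5 stood among the highest sham mice. The fitted difference of Parp14 was -0.37 (SE 0.15, unadjusted p 0.0214, adjusted limma p 0.299). Without DOXO 5 it was -0.51 with an unadjusted limma p of 0.00204, and without sham 1 it was -0.50 (0.00370). Gbp3 passed without sham 1 (-0.49), sham 4 (-0.45) or DOXO 2 (-0.38). Parp9 and Dtx3l, the genomic neighbours and partners of Parp14, had -0.07 and -0.13.

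**Figure D3:**
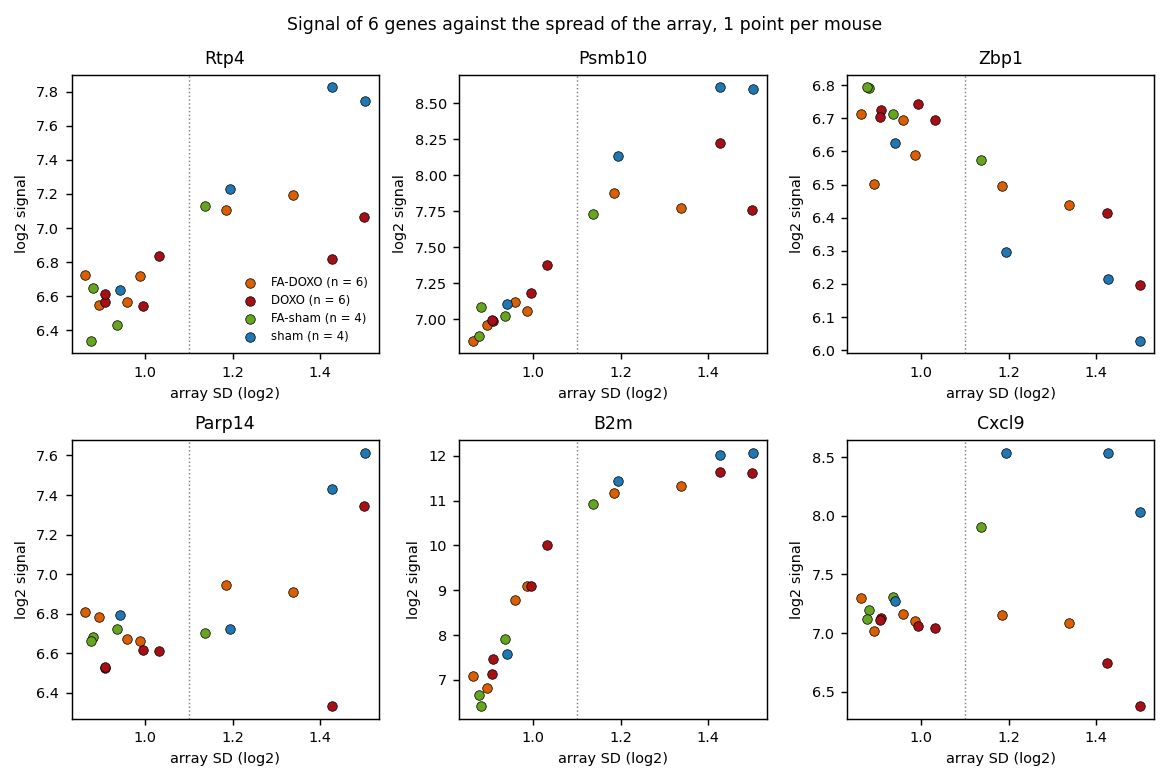
Log2 signal (vertical axis) of Rtp4, Psmb10, Zbp1, Parp14, B2m and Cxcl9 against the SD of the array (horizontal axis), 1 point a mouse, coloured by group, with a dotted line at an SD of 1.1. Rtp4 of all groups lies between 6.34 and 6.83 on the narrow arrays, where sham is 1 mouse. The DOXO and sham points of Rtp4 are seen to part only on the wide ones. Those of Cxcl9 lie farthest apart there. On the narrow arrays the DOXO points of Parp14 and Cxcl9 lie under the sham mouse and those of Zbp1 above it.

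The lower values in DOXO of Rtp4 and Psmb10 stood on the wide arrays, and that pattern was examined further after the data had been seen. The mice that had an array SD above 1.4 were DOXO 1, DOXO 5, sham 2 and sham 3. In 19 of 39 members both DOXO mice lay under both sham mice, and in 2 (Mx1 and Oasl1) both lay above them. Over all clusters, 15.3% were lower and 22.4% higher in that sense. The median difference of the set on these arrays was -0.26. Rsad2 had 7.30 and 7.73 in DOXO 1 and 5, against 8.48 and 8.27 in sham 2 and 3, and Ifit3 had 7.54 and 7.78 in DOXO against 8.00 and 8.38 in sham. Rtp4 had 6.82 and 7.07 in DOXO against 7.75 and 7.83 in sham. The others included Gbp3, Gbp7, Parp9, Parp14, Dtx3l, Irf3, Irf9, Oas2, Oasl2, Bst2, Xaf1, Irgm1, Psmb9, Psmb10 and B2m. With the sham mouse of the third wide array (sham 1, SD 1.19) taken in, 3 members were lower in both DOXO mice than in all 3 sham mice (Gbp3, Psmb9 and Rtp4) and 1 was higher (Mx1), against 5.54% and 8.80% of all clusters. On the narrow arrays, where sham is 1 mouse, 7 members were lower and 9 higher in all 4 DOXO mice than in it, against 18.3% and 14.9% of all clusters.

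**Figure D4:**
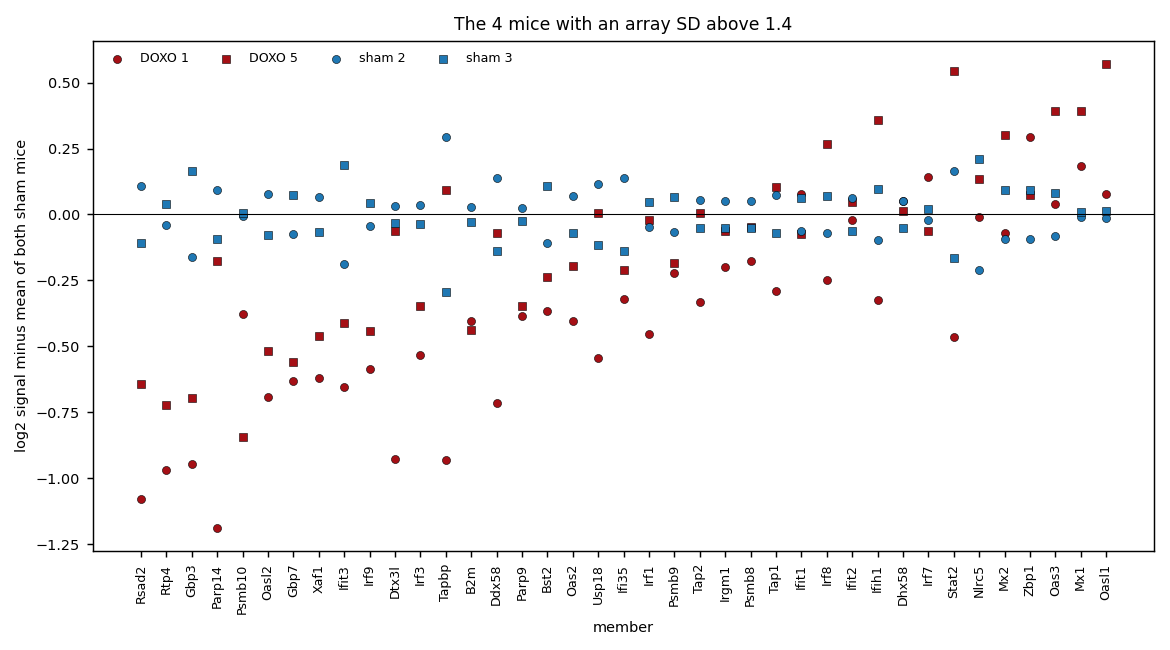
Log2 signal of each of the 39 members in the 4 mice with an array SD above 1.4, minus the mean of both sham mice, ordered by the mean of both DOXO mice. Red points (DOXO 1 and 5) lie below both blue points (sham 2 and 3) in 19 members and above both in Mx1 and Oasl1.

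By role, the sensors showed no shared direction in DOXO against sham. Zbp1, which binds nucleic acid in the left-handed Z form and can start necroptosis, had a difference of 0.18 (SE 0.06, unadjusted p 0.0104, adjusted limma p 0.241), the RNA helicases Dhx58 and Ifih1 had 0.12 and 0.05, and Ddx58 (RIG-I) -0.05. Sting1, the adaptor for cytosolic DNA, had -0.04. None of the 6 transcription factors passed the threshold, and their median was -0.03. Irf7, the factor that amplifies type I interferon, ran from 6.55 through 6.76 to 7.24 in DOXO, against 6.63, 7.08, 7.12 and 6.55 in sham. The ranges overlapped, with a difference of 0.11 (SE 0.08, adjusted limma p 0.608). Stat2, the subunit that gives the interferon complex its activating domain, had 0.04 (SE 0.15), and 1 DOXO mouse (DOXO 5, 7.56) stood above the others, which reached 6.73. Irf3 and Irf9 had -0.21 and -0.19.

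Among the 12 antiviral effectors, 1 was lower (Rtp4), none was higher and the median was -0.08. Ifit1, which binds viral RNA by its cap, ran from 6.27 through 6.67 to 7.36 in DOXO, against 7.33, 7.22, 7.34 and 6.43 in sham. The sham mice on wide arrays reached no higher than the highest DOXO mouse, and the difference was -0.12 (SE 0.13, adjusted limma p 0.750). Rsad2 (viperin), which makes a chain-terminating nucleotide, ran from 6.62 through 6.76 to 7.73 in DOXO, against 6.90, 8.48, 8.27 and 6.71 in sham, with a difference of -0.31 (SE 0.16, adjusted limma p 0.435). The dynamin-like GTPases Mx1 and Mx2 had 0.19 and 0.05, and the oligoadenylate synthetases and their relatives ran from -0.18 (Oasl2) to 0.16 (Oas3). Tap1, the peptide transporter subunit, ran from 6.62 through 6.89 to 7.04 in DOXO, against 6.46, 6.98, 6.84 and 6.79 in sham, with a difference of 0.09 (SE 0.11). Tap2, Tapbp and Nlrc5 stood at -0.0043, -0.05 and 0.02. The 12 members with the response element core had a median difference of -0.12, and the 16 with a window but no core -0.08.

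Doxorubicin under folic acid, FA-DOXO against FA-sham, gave no called member in either direction, beside 0.604% of all clusters higher and 0.463% lower. By limma 1 member had an unadjusted p under 0.05, as did 4.92% of all clusters, and none an adjusted p under 0.05, as did 0.0259%. The median was -0.05 beside -0.02 for all clusters, with 8 members above 0 and 31 below. The upper and the lower 95% bound each lay within a 1.5-fold change for 38 of 39. These counts depended on the fit. Without the covariate the upper bound did so for 31 and the lower for 35. On wide arrays alone, where FA-sham is 1 mouse, the differences of the members ran from -0.48 to 0.33. Xaf1, an interferon-induced antagonist of the apoptosis inhibitor XIAP, had the smallest p. It ran from 6.62 through 6.79 to 6.87 in FA-DOXO, against 6.91, 7.00, 6.85 and 7.16 in FA-sham, so 5 of the 6 FA-DOXO mice lay under every FA-sham mouse. Its difference was -0.25 (SE 0.11, unadjusted p 0.0282, adjusted limma p 0.984), and on the placebo diet -0.16 (SE 0.11).

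Taking both diets together, no member passed the threshold for doxorubicin, beside 2.01% of all clusters higher and 0.814% lower. The unadjusted p was under 0.05 for 6 members, each of them with a difference below 0, against 8.54% of all clusters in either direction. They were Xaf1 (-0.20, SE 0.07, adjusted limma p 0.383), Psmb10 (-0.24), Gbp3 (-0.23), Rsad2 (-0.26), Bst2 (-0.15) and Rtp4 (-0.18). Without sham 1, Xaf1 (-0.26), Rsad2 (-0.35), Bst2 and Gbp3 passed, and without sham 4 Xaf1 (-0.24), Rtp4, Gbp3 and Psmb10. Xaf1 also passed without DOXO 2 (-0.22), and Psmb10 without FA-DOXO 6. Of all clusters 615 were lower without sham 1 and 455 without sham 4, against 283 with all mice. Bst2 (tetherin), which holds budding virus on the cell, averaged 7.41 ± 0.09 in FA-DOXO and 7.44 ± 0.08 in DOXO, against 7.60 ± 0.15 in FA-sham and 7.55 ± 0.26 in sham (SD, n = 6, 6, 4 and 4).

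FA-DOXO against DOXO asks what folic acid did in treated mice. No member passed, beside 0.837% of all clusters higher and 0.273% lower, and 0 members had an unadjusted p under 0.05 by limma, as against 5.86% of all clusters. The median was 0.05, with 25 members above 0 and 14 below. Rtp4 had 0.19 (SE 0.11) and Parp14 0.21 (SE 0.13). Apart from B2m, whose interval ran from -0.69 to 1.31, each upper bound lay under a 1.5-fold increase. On wide arrays alone, with 2 mice in each group, the upper bound did so for 17 of the 39.

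In the mice without doxorubicin, FA-sham against sham, no member passed either (Rtp4 was lower without sham 4), beside 1.65% of all clusters higher and 0.173% lower. The median was 0.03, with 26 above 0 and 13 below. Psmb8, the inducible chymotrypsin-like subunit of the immunoproteasome, had 6.24, 5.93, 6.13 and 6.30 in FA-sham, against 6.38, 6.44, 6.34 and 6.34 in sham. Parp14 had 6.68, 6.72, 6.66 and 6.70 in FA-sham. Both genes were lower in all 4 FA-sham mice than in any sham mouse, as were 0.590% of all clusters, and neither passed at equal array SD (Psmb8 -0.19, SE 0.08, adjusted limma p 0.596, and Parp14 -0.20, SE 0.18, adjusted limma p 0.811). In these mice 3 of 4 sham arrays and 1 of 4 FA-sham arrays were wide. Without the covariate the median of the set was -0.16, with 1 member called higher (3.80% of all clusters) and 1 lower (0.552%). Two-sided exact permutation tests of the signals as deposited were run for 13 genes in 4 comparisons, 52 in all, and 4 gave a p under 0.05, with no adjustment for the number of tests. They were Psmb8 and Parp14 here (p = 0.0286 each, the smallest that 4 against 4 allows in this exact test), Psmb8 in DOXO against sham (exact p = 0.0286, with 5 of 6 DOXO mice under every sham mouse) and Xaf1 in FA-DOXO against FA-sham (exact p = 0.0190). Psmb8, Parp14 and Xaf1 were all picked for description by their smallest limma p in these same arrays. Their exact p-values are therefore no separate support.

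The interaction, the doxorubicin difference under folic acid minus that on placebo, passed for 1 member. Zbp1 had an interaction of -0.27 (SE 0.09, unadjusted p 0.00872, adjusted limma p 0.538), beside 1.41% of all clusters called below 0 and 0.368% called above. Its signal ran from 6.44 through 6.55 to 6.71 in FA-DOXO and from 6.20 through 6.70 to 6.74 in DOXO. The FA-sham mice had 6.79, 6.71, 6.79 and 6.57, and the sham mice 6.30, 6.03, 6.21 and 6.62. The fitted difference was -0.09 (SE 0.06) for FA-DOXO minus FA-sham and 0.18 (SE 0.06) for DOXO minus sham. The call was lost in 14 of the 20 fits that left out 1 mouse, with interactions between -0.32 and -0.22 over the 20. Those mice were sham 1 and 2, all 4 FA-sham mice, DOXO 1 to 4 and FA-DOXO 1, 2, 3 and 6, and without sham 4 or DOXO 6 Rtp4 passed beside Zbp1, and without DOXO 5 Parp14. The lowest Zbp1 signals stood on wide arrays, where 3 of the 4 sham mice lay. The T-cell marker Cd3g also had its lowest values there (5.30 to 5.89 in those sham mice), and its interaction was -0.38. Among the 11 measured T and NK cell markers only Cd3g was called in DOXO against sham. The sums of that list overlapped between the groups. Over all clusters 45% had an r under -0.7 with the array SD. The part of Cd3g in the Zbp1 result was not tested. The interaction of Rtp4 was 0.51 (SE 0.18, unadjusted p 0.0113), and it passed without sham 4, FA-sham 4, DOXO 4 or DOXO 6. The same 4 sham mice stand behind this test, the comparison on the placebo diet and that of the sham-injected mice.

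Genes of the same pathway outside the set were taken from 4 lists. For DOXO against sham, 16 of 18 interferons, receptors and signalling genes were measured, and 1 was higher and none lower. None of the 15 measured sensing adaptors or of the 12 measured class I processing genes passed. Of 39 measured interferon-stimulated genes outside the set, 1 was higher and 6 were lower, with a median of -0.08, where 3.14% of all clusters were higher and 1.00% lower with a median of 0.04. The lower ones were the chemokine gene Cxcl9 (-1.18), Phf11d (-0.43), Gbp5 (-0.34), the ISG15-conjugating enzyme Ube2l6 (-0.32), Herc6 (-0.31), the main ISG15 ligase in mice, and Mlkl (-0.27), the effector of necroptosis. The higher ones were the membrane protein Ifitm1 (0.75, adjusted limma p 0.0766) and the phosphatase Ptpn2 (0.33), which dampens JAK-STAT signalling. For FA-DOXO against FA-sham none of the 82 measured genes of the 4 lists passed.

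Cxcl9, which attracts T cells and is induced mainly by interferon gamma, was the only gene of these lists with an adjusted p under 0.05 in the fit with all mice and the covariate. Its signal ran from 7.02 through a median of 7.13 to 7.30 in FA-DOXO and from 6.38 through 7.05 to 7.13 in DOXO. The FA-sham mice had 7.20, 7.30, 7.12 and 7.90, and the sham mice 8.53, 8.03, 8.54 and 7.27. Each DOXO mouse lay under each sham mouse, as in 0.138% of all clusters. The difference at equal array SD was -1.18 (SE 0.22), a fold of 0.442, with an adjusted limma p of 0.0399. Leaving out any 1 mouse kept the unadjusted p at 3.93e-04 or below, while the adjusted limma p ran between 5.23e-04 and 0.148 and was under 0.05 in 4 of the 20 fits. It was under 0.05 in 5 of 14 other alternatives. They were median centring, the filter on low signals, clusters with 1 gene symbol, trend and robust moderation, and the mean of all clusters. All but median centring left the difference at -1.18 and are no separate support. The adjusted limma p stood at 0.307 without the covariate, 0.248 with wide or narrow as a block and 0.633 after quantile normalization. It was 0.115 with array weights and 0.307 with the replicate block. On wide arrays alone the difference was -1.80, and on narrow arrays alone, where sham is 1 mouse, -0.19. The interaction for Cxcl9 was 0.93 (SE 0.32, unadjusted p 0.00860, adjusted limma p 0.538). Ifng itself averaged 6.56 in FA-DOXO, 6.37 in DOXO, 6.67 in FA-sham and 5.99 in sham, with 6.02 on wide and 6.67 on narrow arrays. Cxcl10, a related interferon-induced chemokine, averaged 6.22 in both FA-DOXO and DOXO, 6.41 in FA-sham and 5.96 in sham. These means of Ifng and Cxcl10 are of the signals as deposited, without the array SD term, and 3 of the 4 sham arrays were wide.

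Some markers of neutrophils, macrophages and T cells moved in DOXO against sham, where 3.14% of all clusters were higher and 1.00% lower. Of 10 neutrophil markers, 5 were higher in DOXO than in sham (S100a8 by 1.35, Ngp by 1.4, Retnlg by 1.11, S100a9 by 0.70 and Mmp8 by 0.53, adjusted limma p of 0.0766 to 0.157) and none was lower. On wide arrays alone 5 of the 10 were higher and on narrow arrays alone none, beside 0.722% and 0.331% of all clusters. The summed linear signal of the 10 ran from 794 to 1070 in FA-DOXO and from 844 to 1404 in DOXO, against 746 to 895 in FA-sham and 488 to 852 in sham. Of 11 macrophage markers, 3 were higher (Lyve1 by 0.55, C1qa by 0.37 and Cd68 by 0.31), with sums of 1239 to 2556 in FA-DOXO, 1233 to 2807 in DOXO, 1227 to 1661 in FA-sham and 1178 to 2278 in sham. Of 11 T and NK cell markers 1 was higher, Cd3g (0.19), and their sums overlapped between the groups, at 630 to 925, 551 to 976, 839 to 1025 and 541 to 933 in FA-DOXO, DOXO, FA-sham and sham. The sums of 5 B cell and of 4 erythroid markers overlapped between the groups as well. All these sums are of the signals as deposited, without the array SD term, and 3 of the 4 sham arrays were wide. No marker was at 0 on any array. The part of these cells in the signals of the interferon-stimulated genes was not tested, and in whole ventricle fewer cells of a type and less RNA per cell cannot be told apart.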

How the data were processed

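Left ventricular RNA of 20 mice was hybridized to Mouse Gene 1.0 ST arrays, 1 array a mouse. The authors processed the scans in R (version 2.14.2 per the labels) and deposited log2 signals for 34760 transcript clusters. The steps of background correction and normalization were not given in the sources used here. A platform annotation gave 1 gene symbol to 21640 clusters, several to 1321 and was silent on 11799. An array gives no read depth, and the number of arrays limits the precision.

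Comparisons were fitted to all clusters and all 20 arrays in limma 3.58.1 (R 4.3.3), with a mean per group and the array SD as a covariate, and p-values were adjusted by Benjamini-Hochberg over the 34760 clusters. The unadjusted threshold of 0.01 follows the study's methods. The 6 comparisons set doxorubicin against sham injection on each diet and over both, folic acid against placebo with and without doxorubicin, and the doxorubicin difference of 1 diet against that of the other. The fit was also run on simulated data. There the residuals of each gene were permuted over all arrays, so that run cannot show how the larger scatter of wide arrays acts on the p-values. Members were described in full where an unadjusted p was under 0.01, then by smallest p up to 8 genes, with Isg15 (not measured alone), Irf7, Ifit1, Stat2, Psmb8, Tap1 and B2m added as standard readouts. Other pathway genes were named where they passed. Members and gene lists were chosen with earlier results of these data known. Alternatives covered the covariate, wide or narrow arrays alone, normalization, filters, moderation, array weights, the replicate block, and leaving out each mouse. Labels name the mice as replicates. Promoters come from RefSeq for GRCm38.p6. Figures used matplotlib 3.10.9.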

Additional observations from a re-analysis of the deposited data

Results flagged for a closer look

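Among 52 combinations of a described gene and a group, 4 held a mouse that stood far from the rest of its group, and chance gives about 5% of such combinations. Parp14 in DOXO 5 stood at 7.34, and the next highest DOXO mouse had 6.62. Stat2 in the same mouse stood at 7.56, and the next had 6.73. That mouse has a wide array. Ifit1 in sham 4 stood at 6.43, and the next lowest sham mouse had 7.22. B2m in sham 4 stood at 7.58, and the next had 11.4. Sham 4 is the sham mouse with a narrow array. How far array spread accounts for these 4 values was not tested.

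Zbp1 differed in its doxorubicin difference between the diets, with an interaction of -0.27 at an unadjusted p of 0.00872 and an adjusted limma p of 0.538.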

How the results depend on the processing

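For DOXO against sham, the number of members called (2) was 1 without the covariate, 1 with wide or narrow as a block, 0 on wide arrays alone, 0 on narrow arrays alone, 0 with only the groups compared and 1 with the replicate block, and the median (-0.05) was -0.26 after scale normalization. It stayed at 2 with other members, Parp14 and Gbp3 after quantile normalization and with array weights, and Gbp3 and Psmb9 after scale normalization. Zbp1 was higher in addition on clusters with 1 gene symbol and with trend and robust moderation. For FA-DOXO against FA-sham (0), only the groups compared gave 1. For FA-sham against sham (0), the number was 2 without the covariate, 3 with wide or narrow as a block, 1 on narrow arrays alone, 3 after quantile normalization, 2 after scale normalization, 1 after median centring and 1 with the replicate block, and the median (0.03) was -0.16, -0.17 and -0.42 without the covariate, after quantile and after scale normalization. For the interaction (1), it was 0 without the covariate, with wide or narrow as a block, on wide or narrow arrays alone, after scale normalization, with the filter on low signals and with the replicate block, and 2 with array weights. It stayed at 1 after median centring (Rtp4) and quantile normalization (Parp14), but above 0, and Zbp1 lost its call in both (-0.21 and -0.30) and in 8 of 12 alternatives that tested it. The median (0.01) was 0.21 without the covariate and 0.39 after scale normalization. For doxorubicin over both diets (0), median centring gave 3 (583 higher and 401 lower clusters) and array weights 5 (1033 and 514), against 700 and 283 clusters. FA-DOXO against DOXO kept 0 called members under each alternative. Without the covariate, the median over all clusters for FA-sham against sham was 0.19 in place of 0.07. Median centring gave 171 higher and 221 lower clusters there, against 575 and 60, and 257 and 194 for the interaction, against 128 and 490.

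Leaving out 1 mouse, members called ran between 0 and 5 for DOXO against sham, 0 and 1 for FA-sham against sham, 0 and 2 for the interaction and 0 and 4 for doxorubicin over both diets. DOXO minus sham changed sign on narrow arrays alone for Rtp4 (0.0042), Psmb10 (0.027) and Ifit1 (0.049). Irf7 was -0.025 without the covariate, -0.040 after quantile and -0.15 after scale normalization. Stat2 was -0.049 without the covariate, -0.015 on narrow arrays, -0.10 after quantile and -0.18 after scale normalization, -0.0088 after median centring, -0.13 with array weights and -0.075 with the replicate block. Tap1 was -0.021 after scale normalization and -0.027 with array weights. B2m was 0.20 with wide or narrow as a block, 0.85 on narrow arrays, 0.64 with array weights and 0.22 with the replicate block. With 1 mouse left out, the range was -0.20 to 0.0060 for Ifit1, -0.17 to 0.16 for Stat2, -0.018 to 0.17 for Tap1 and -0.38 to 0.31 for B2m. The causes were not tested.

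Mice share replicate numbers across groups, and the labels do not say what the numbers stand for. Of 26 same-number pairs, 14 correlated above 0.1 (range -0.45 to 0.62), and 7 of 20 mice correlated best with their own number. Whether mice of 1 number were handled together was not tested. With the replicate block, Parp14 passed (-0.44, unadjusted p 0.00884) and Rtp4 did not (-0.41, 0.0175). The signals near the array median, the unknown normalization and the single narrow sham array limit these comparisons.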
